A study of Mus musculus with 40 samples.

Results

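The genes described here encode the enzymes that oxidise ethanol to acetaldehyde, acetaldehyde to acetate, and acetate onward to acetyl-CoA. They are 9 of the 55401 rows of the deposited gene table, chosen by symbol: Adh1, Adh5, Adh7, Cyp2e1, Aldh2, Aldh1a1, Aldh1b1, Acss1 and Acss2. All 9 passed the filter on low counts (a mean of at least 10 counts) in each comparison.

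RNA was sequenced from the renal cortex of 40 individual male C57BL/6J mice, 5 in each of 8 groups. Ins2-Akita heterozygous mice carry a mutated insulin gene that causes diabetes through beta cell loss, and their wild type (WT) littermates served as controls. The mice of each genotype received water, an ethanol vehicle (10% ethanol in water), MitoQ, or MitoGamide at 10 mg/kg in the ethanol vehicle, from 6 to 22 weeks of age. The sources used here describe daily oral gavage for MitoGamide and its ethanol vehicle, and give neither dose nor route for MitoQ in these mice. MitoGamide is a mitochondria-targeted scavenger of dicarbonyls such as methylglyoxal, and MitoQ is a mitochondria-targeted antioxidant. The MitoGamide groups therefore also received ethanol, whereas the water and MitoQ groups form an arm without it, and the submitters' records used here do not say whether both arms were dosed and sequenced together. The Akita model is a single mutation on an inbred background, so that it covers insulin-deficient diabetes in male mice only.

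Ethanol is oxidised in the cytosol by alcohol dehydrogenases, in the endoplasmic reticulum by the cytochrome P450 Cyp2e1, and in peroxisomes by catalase. The acetaldehyde produced is reactive, and mitochondrial Aldh2 has a high affinity for it, with Aldh1b1 in mitochondria and Aldh1a1 in the cytosol as further acetaldehyde dehydrogenases. Acetate is activated to acetyl-CoA by Acss2 in the cytosol and nucleus and by Acss1 in mitochondria. Most ingested ethanol is cleared in the liver, and in the kidney these enzymes are largely proximal tubule proteins that also act on retinoids, ketone bodies, formaldehyde and lipid aldehydes.

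The libraries held 9106654 to 24321424 estimated counts, and levels of single genes, given as CPM, are scaled by TMM over the 40 libraries. A gene is called where its adjusted p was under 0.05 over all genes tested. All 10 proximal tubule markers were detected in each group, with summed levels from 10350 to 19920 CPM. Olfactory and vomeronasal receptor genes, which are mainly genes of sensory epithelia, held 449 to 1468 CPM of the unscaled library total in the 20 libraries of the ethanol arm and 808 to 2566 CPM in the 20 libraries of the water arm. The leading principal component, with 40% of the variance over 17769 genes, had a correlation of 0.92 with the log2 of this receptor share over the 40 libraries. 1 library, WT on water replicate 1, had the liver gene albumin (Alb) at 292 CPM against at most 31.2 CPM in any of the others, and the 8 liver markers summed to as much as 458 CPM in its group against at most 72.3 CPM in any other group. Ins2 was at or below 0.119 CPM in every library, so that the genotype could not be checked from its own transcript. WT on MitoQ replicate 3 stood apart by a mitochondrial share of 49.2% of counts.

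The alcohol dehydrogenase genes lie in tandem on chromosome 3 of GRCm38, in the order Adh7, Adh1, Adh6a, Adh6b, Adh4 and Adh5 on the plus strand, within 237.7 kb. Adh7 (chr3:138217760-138233382) encodes the class IV enzyme, which is known for retinol oxidation and is typical of stomach and other epithelia. Adh1 (chr3:138260991-138290698) encodes the class I enzyme, the main cytosolic ethanol oxidiser. Adh5 (chr3:138443093-138455499) encodes the class III enzyme, which oxidises S-hydroxymethylglutathione and reduces S-nitrosoglutathione and is slow on ethanol. Cyp2e1 lies at chr7:140763739-140774987 on the plus strand. Aldh2 (chr5:121566027-121593824, minus strand), Aldh1a1 (chr19:20492715-20643465, plus strand) and Aldh1b1 (chr4:45799022-45804604, plus strand) are on separate chromosomes. Acss1 (chr2:150618105-150668500, minus strand) and Acss2 (chr2:155517948-155585724, plus strand) are both on chromosome 2. The annotation places Adh7 and 0610031O16Rik on opposite strands of the same locus with 81 shared 31-base sequences, and 281 of the 4934 31-base sequences of Aldh1a1 (5.70%) also occur in its close copy Aldh1a7, so that reads of these pairs could be divided between them. The annotation likewise places Gm16559 opposite Adh1, Gm42879 opposite Aldh2, E130215H24Rik opposite Acss1 and Gss opposite Acss2 (309 shared 31-base sequences with Gss), and reads of such overlaps cannot be told apart unless counting used the strand.

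The promoter windows of the 4 genes with the lowest adjusted p for diabetes on the ethanol vehicle, and of Adh5, which was not called there, are shown for comparison. Each is the RefSeq window from 250 bases before to 50 bases after the transcription start on GRCm38.p6, read 5′ to 3′ on the plus strand. Windows were found for 8 of the 9 genes, and none for Aldh2. Adh5 and Aldh1a1 have 2 windows each, and the one nearest to the start of the GENCODE gene is printed. Capitals mark the motifs listed after the sequences.
Adh1 (chr3:138277335-138277634): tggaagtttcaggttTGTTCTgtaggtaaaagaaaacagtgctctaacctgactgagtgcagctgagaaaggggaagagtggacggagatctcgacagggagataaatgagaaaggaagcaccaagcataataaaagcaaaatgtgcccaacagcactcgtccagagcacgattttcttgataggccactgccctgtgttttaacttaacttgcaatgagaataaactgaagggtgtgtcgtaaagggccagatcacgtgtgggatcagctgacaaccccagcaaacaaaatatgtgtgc
Cyp2e1 (chr7:140763569-140763868): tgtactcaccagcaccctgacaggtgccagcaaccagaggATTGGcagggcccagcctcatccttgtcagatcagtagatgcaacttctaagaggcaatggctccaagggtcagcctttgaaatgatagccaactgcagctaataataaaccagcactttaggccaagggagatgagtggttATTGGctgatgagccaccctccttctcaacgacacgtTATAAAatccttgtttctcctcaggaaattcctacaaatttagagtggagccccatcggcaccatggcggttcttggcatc
Aldh1a1 (chr19:20492333-20492632): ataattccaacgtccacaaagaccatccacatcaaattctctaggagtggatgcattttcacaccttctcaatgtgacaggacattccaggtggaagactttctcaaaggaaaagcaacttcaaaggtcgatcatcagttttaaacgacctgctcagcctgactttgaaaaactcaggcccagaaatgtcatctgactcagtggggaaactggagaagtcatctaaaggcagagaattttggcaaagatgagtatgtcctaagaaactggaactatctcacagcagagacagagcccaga
Aldh1b1 (chr4:45798772-45799071): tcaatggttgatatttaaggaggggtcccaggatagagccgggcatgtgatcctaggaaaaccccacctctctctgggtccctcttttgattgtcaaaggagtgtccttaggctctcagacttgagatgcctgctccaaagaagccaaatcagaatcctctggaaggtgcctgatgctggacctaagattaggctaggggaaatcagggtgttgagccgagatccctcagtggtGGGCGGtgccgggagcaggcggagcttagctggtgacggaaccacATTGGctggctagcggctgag
Adh5 (chr3:138442843-138443142): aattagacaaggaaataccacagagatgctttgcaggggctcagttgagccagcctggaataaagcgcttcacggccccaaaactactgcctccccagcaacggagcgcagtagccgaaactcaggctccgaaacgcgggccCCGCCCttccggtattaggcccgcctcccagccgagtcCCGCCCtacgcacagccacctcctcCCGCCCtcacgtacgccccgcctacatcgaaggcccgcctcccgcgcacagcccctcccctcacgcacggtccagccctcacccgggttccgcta

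The motifs searched on both strands were the TATA box TATAAA, the CCAAT box CCAAT, the GC box GGGCGG, the nuclear receptor half-site AGGTCA, the androgen receptor half-site TGTTCT, the HNF1 half-site GTTAAT and the SREBP site TCACNCCAC. Over 32851 windows of 300 bases these occurred in 13.6%, 37.4%, 35.7%, 16.3%, 19.0%, 7.1% and 1.24%, respectively. The Cyp2e1 window held the TATA box at position -31 and the CCAAT box, read on the minus strand as ATTGG, at -210 and -68. The Adh1 window held the androgen receptor half-site at -235 and none of the other motifs, and this RefSeq start lies 16594 bases downstream of the start of the GENCODE gene. The Aldh1b1 window held a GC box at -16 and a CCAAT box at 30, whereas none of the 7 motifs occurred in the printed Aldh1a1 window. The other Aldh1a1 window, at chr19:20601718-20602017, held CCAAT boxes at -72 and -2 and 1 CpG dinucleotide. The printed Adh5 window had 3 GC boxes, at -108, -70 and -45, and 26 CpG dinucleotides, against 6 in Adh1, 4 in Cyp2e1, 3 in Aldh1a1, 7 in Aldh1b1 and a median of 7 over all windows. The other Adh5 window, at chr3:138436950-138437249, held a TATA box at -207, no GC box and 3 CpG dinucleotides, so that the higher CpG number belongs to the printed window alone. A match of letters describes the window only.

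Members differed widely in level. Per kilobase of exon, the level in WT mice on the ethanol vehicle was highest for Cyp2e1, at 515 ± 18.0 CPM (SD, n = 5), followed by Adh1 at 152 ± 27.9, Aldh2 at 70.9 ± 4.23 and Acss1 at 46.9 ± 8.50. Adh5 was at 23.0 ± 1.76 CPM per kilobase and Acss2 at 19.5 ± 1.99. Aldh1a1 at 1.51 ± 0.761, Adh7 at 1.03 ± 0.528 and Aldh1b1 at 0.481 ± 0.185 CPM per kilobase made up the low end, where Aldh1a1 and Adh7 did not differ beyond their SD. In Akita mice on the same vehicle the order began with Cyp2e1 at 318 ± 43.1, Aldh2 at 78.3 ± 3.38 and Adh1 at 70.4 ± 4.92 CPM per kilobase. Aldh1a1 stood at 6.08 ± 1.06 there, above Aldh1b1 at 1.52 ± 0.306 and Adh7 at 0.419 ± 0.183. Aldh2 and Adh1 thus lay close together in Akita mice, whereas Adh1 was the higher one in WT mice. The order of Aldh2 and Adh1 in Akita mice depended on the length used, with 104 and 105 CPM per kilobase of their longest transcripts. The place of Acss2 depended on it too, since it had 54.8 CPM per kilobase of its longest transcript in WT mice, against 53.5 for Acss1. At these levels the counts per library ran from 2162 to 27163 for Cyp2e1, from 21 to 970 for Aldh1a1, from 9 to 149 for Adh7 and from 5 to 203 for Aldh1b1, so that the last 2 were measured with the least precision.

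**Figure D1:**
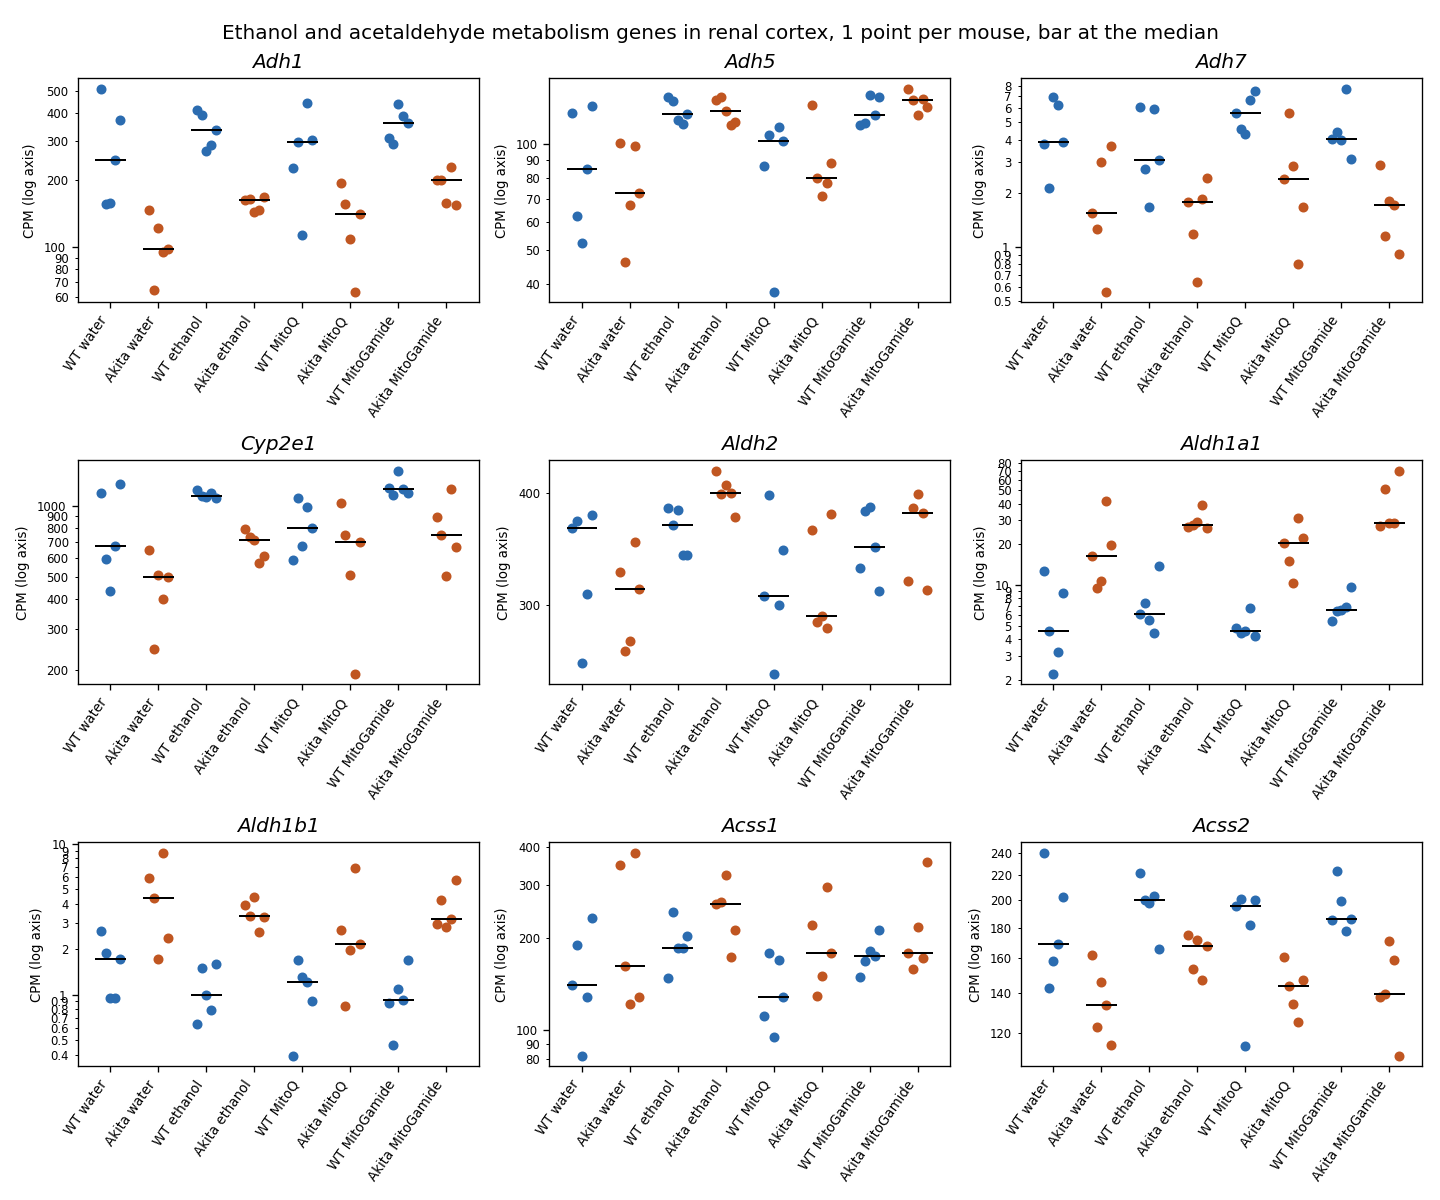
CPM of each of the 9 genes (log axis) in every library, by group, with blue points for WT mice, orange points for Akita mice and a bar at the median of 5 mice. Akita points lie above the WT points of the same treatment mostly for Aldh1a1 and Aldh1b1 and below them mostly for Adh1, Cyp2e1 and Adh7, whereas Adh5 ran from 38.1 to 138 CPM in WT and from 46.3 to 144 CPM in Akita mice.

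The comparison of the ethanol and water vehicles asks whether the enzymes that handle ethanol differed between mice that received it for 16 weeks and mice that did not. In WT mice no member passed the test, beside 0.0% of all genes. Adh5 and Cyp2e1 had the largest positive values, with log2 fold changes of 0.47 (SE 0.23) and 0.45 (SE 0.27), and Aldh1b1 had the most negative one, at -0.55 (SE 0.37). In Akita mice Adh5 rose 1.63-fold and Aldh2 rose 1.32-fold with ethanol, beside 12.7% of all genes called (3.66% higher and 9.07% lower), and the other 7 members did not pass the edgeR test. DESeq2 called 4 members there, beside 4264 of all genes. Neither edgeR call held under the replicate block, with the receptor genes as a covariate, or without any one of 8 of the 10 libraries.

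Adh5 was at 122, 62.5, 52.5, 84.8 and 128 CPM in the 5 WT mice on water. On ethanol the WT mice had 136, 133, 117, 114 and 122 CPM. The ethanol values were therefore close together, and 2 of the water values lay among them. In Akita mice Adh5 was at 101, 46.3, 67.1, 98.7 and 72.8 CPM on water. On ethanol it was at 134, 136, 124, 113 and 115 CPM, so that the groups did not overlap. For the Akita mice this was a log2 fold change of 0.70 (SE 0.19, edgeR quasi-likelihood test, adjusted p = 0.0388; 0.07 with the replicate block and up to 0.0982 without 1 library).

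Aldh2, the mitochondrial enzyme that clears most acetaldehyde, was at 366, 372, 259, 309 and 377 CPM in WT mice on water. With ethanol it was at 385, 369, 383, 341 and 341 CPM, which overlapped with water (log2 fold change 0.12, SE 0.14, adjusted p = 0.552 by edgeR). Akita mice on water had 326, 267, 274, 352 and 312 CPM of Aldh2. Akita mice on ethanol had 423, 399, 408, 400 and 376 CPM, each above every Akita mouse on water. This difference was 0.41 on the log2 scale (SE 0.12, edgeR adjusted p = 0.0451; 0.0748 without a filter, 0.0891 with the replicate block and up to 0.115 without 1 library).

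Cyp2e1, whose protein is known to be stabilised by ethanol, was at 1133, 593, 434, 674 and 1236 CPM in WT mice on water. In WT mice on ethanol it was at 1171, 1097, 1086, 1128 and 1075 CPM. All 5 lay within the range on water, and the difference was not called (edgeR adjusted p = 0.257). In Akita mice Cyp2e1 was at 650, 247, 507, 403 and 497 CPM on water. With ethanol it was at 799, 733, 718, 571 and 612 CPM, and 1 water value lay within that range. The log2 fold change of 0.59 (SE 0.23) did not pass the test (edgeR adjusted p = 0.0812).

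Adh1 was at 514, 156, 157, 247 and 373 CPM in WT mice on water, and the highest of these was the library with high albumin. On ethanol the WT values were 412, 393, 270, 288 and 336 CPM, within the range on water. In Akita mice Adh1 was at 146, 64.1, 122, 95.2 and 98.0 CPM on water and at 162, 165, 144, 148 and 169 CPM on ethanol. Only the lowest ethanol value fell under the highest water value, by a small margin, and the log2 fold change of 0.59 (SE 0.19) had an edgeR adjusted p of 0.0532. Without WT on water replicate 1 the log2 fold change of Adh1 with ethanol in WT mice was 0.55 in place of 0.23, with an adjusted p of 0.153.

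The remaining members did not pass the edgeR test on either background. Acss2 had log2 fold changes of 0.12 (SE 0.16) in WT and 0.28 (SE 0.12) in Akita mice, and Acss1 of 0.33 (SE 0.25) and 0.13 (SE 0.32). Aldh1a1 had 0.26 (SE 0.45) and 0.61 (SE 0.33). Aldh1b1 had a second negative value in Akita mice, -0.43 (SE 0.36), and Adh7 had -0.23 (SE 0.38) in WT and -0.26 (SE 0.47) in Akita mice. In both genotypes 7 of the 9 point estimates were positive, and the median was 0.23 in WT and 0.41 in Akita mice, beside -0.04 and -0.02 over all genes tested.

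**Figure D2:**
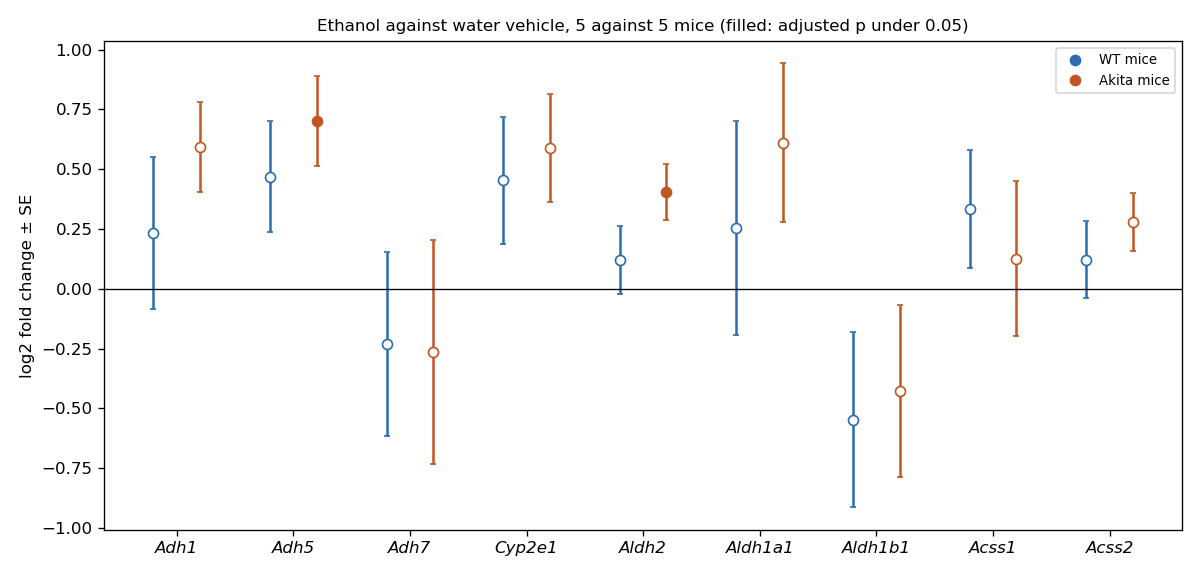
Log2 fold change (± SE) of ethanol against water vehicle for each gene, from edgeR fits of 5 against 5 mice, with blue for WT and orange for Akita mice. Only Adh5 and Aldh2 in Akita mice, at 0.70 and 0.41, had an adjusted p under 0.05.

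Over all genes, 0 of 18092 (0.0%) were called in WT mice by edgeR, the groups did not overlap for 3.61% of genes and 0 members, 4959 had an unadjusted p under 0.05 (27.4%), and DESeq2 called 724. In Akita mice 2283 of 17928 genes (12.7%) were called, 3.66% higher and 9.07% lower on ethanol, and the 2 called members, both higher, stand beside those shares. Groups did not overlap for 2 members, Adh5 and Aldh2, against 10.6% of all genes. The difference of the ethanol effect between the genotypes, tested itself, was called for 0 of the 9 members (0.0% of 18050 genes called, 4.25% with an unadjusted p under 0.05, and 2 genes called by DESeq2). Among the members the lowest unadjusted edgeR p of that interaction was 0.102, for Aldh2. Fitted over both genotypes together, with 20 libraries, Adh5 rose by 0.60 (SE 0.16, adjusted p = 0.00953), Cyp2e1 by 0.54 (SE 0.18, adjusted p = 0.0225) and Aldh2 by 0.28 (SE 0.09, adjusted p = 0.0199) on the log2 scale with ethanol. In that fit 8267 of 18050 genes (45.8%) were called, 21.5% higher and 24.3% lower, so that calls were no more frequent among the 9 members than among all genes.

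The receptor gene share was lower in each Akita mouse on ethanol than in any Akita mouse on water, by a small margin at the nearest values, and the WT groups overlapped. It was 752 to 1061 CPM in Akita mice on ethanol and 1062 to 2016 CPM in Akita mice on water, and 749 to 1239 and 808 to 2566 CPM in the WT groups. The exact permutation test of its TMM-scaled level gave p = 0.00794 in Akita mice, the smallest that 5 against 5 mice can give (adjusted p = 0.0551 over 104 list tests), and p = 0.0873 in WT mice. With the log2 receptor share as a covariate none of the 9 members was called in Akita mice, and the log2 fold change of Adh5 was 0.08, that of Aldh2 0.16 and that of Cyp2e1 0.17. The ethanol effect over both genotypes was then 0.10 for Adh5, 0.08 for Cyp2e1 and 0.04 for Aldh2, with 0 members and 2 of all genes called. Without the 3 water libraries of each genotype above 1500 CPM of receptor genes, an alternative added after the data were examined, Adh5 had 0.33, Aldh2 0.25 and Cyp2e1 0.40 in Akita mice, again with 0 members called and only 2 libraries left on water. Over both genotypes the values without those libraries were 0.16 for Adh5, 0.15 for Cyp2e1 and 0.12 for Aldh2, again with 0 members called. In Akita mice, leaving out any one of 8 of the 10 libraries left 0 members called, whereas leaving out Akita on water replicate 1 gave 5 and replicate 4 gave 4. Over all genes these 10 fits called 1 to 6496.

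No marker sum passed the exact permutation test between the vehicles after adjustment. Groups fully apart give the smallest possible p of 0.00794, which was 0.0551 after adjustment, so that no sum could pass. Single markers were called over both genotypes, and the mitochondrial share ranged more widely on water. The 4 distal convoluted tubule markers, none at 0, summed to 939 to 1079 CPM in Akita mice on ethanol and to 1146 to 2066 CPM on water, with no overlap (means 998 and 1580, exact permutation p = 0.00794, adjusted p = 0.0551 over 104 tests). The markers did not go one way, since 1 was called higher and 1 lower on ethanol in Akita mice, and 1 higher and 2 lower over both genotypes. In WT mice the means were 810 and 1412 CPM (exact permutation p = 0.0714). The 5 adrenal markers, with Cyp11b2 at 0, had means of only 3.94 and 5.94 CPM in Akita mice, with the same exact permutation p as the distal markers. Over both genotypes 3 of 5 podocyte markers fell, and 5 of 5 endothelial and 5 of 10 proximal tubule markers rose with ethanol. Of all genes 24.3% were called lower and 21.5% higher in that fit. Mitochondrial transcripts held 21.6% to 28.7% of counts in Akita mice on ethanol and 24.2% to 43.1% on water, and 20.1% to 22.6% and 14.3% to 37.3% in WT mice. The part of these shifts in the vehicle differences of Adh5, Aldh2 and Cyp2e1 was not tested.

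Across the 20 WT libraries the log2 level of Adh5 had a Pearson correlation of -0.81 with the log2 receptor share (Spearman -0.89), and of -0.87 (Spearman -0.87) across the 20 Akita libraries. The permutation p was 1e-05 in each case, the smallest that 100000 permutations can give, and 4.5e-05 after adjustment over the 18 relations with the receptor share. Libraries of all treatments were permuted together, so that each such p also takes in differences between the arms. Without the 2 libraries farthest from the median the correlation of Adh5 was -0.76 and -0.88, within the ethanol arm -0.72 and -0.37, and within the water arm -0.76 and -0.81 (10 libraries per arm and genotype). For deviations from the group means it was -0.705 and -0.729. For Cyp2e1 the correlation was -0.86 in WT (Spearman -0.74, permutation p = 1e-05 and 0.00032) and -0.64 in Akita mice (Spearman -0.58, permutation p = 0.00182 and 0.00846, adjusted 0.00328). Within the ethanol arm it was -0.06 and -0.44, within the water arm -0.93 and -0.57, and without the 2 farthest libraries -0.84 and -0.58. For Aldh2 the correlation was -0.69 in WT (Spearman -0.66, permutation p = 0.00055 and 0.00206, adjusted 0.00124) and -0.73 in Akita mice (Spearman -0.71, permutation p = 0.00048 and 0.00072, adjusted 0.00123). Within the ethanol arm it was -0.41 and 0.11, within the water arm -0.72 and -0.80, and without the 2 farthest libraries -0.59 and -0.72. Adh1 had -0.70 in WT and -0.76 in Akita mice (Spearman -0.61 and -0.76, adjusted permutation p = 0.00123 and 0.000108), with -0.46 and -0.61 within the ethanol arm, -0.70 and -0.58 within the water arm and -0.63 and -0.73 without the 2 farthest libraries. Aldh1a1 had -0.62 and -0.66 (Spearman -0.62 in each, adjusted permutation p = 0.00507 and 0.00308), with -0.09 and -0.07, -0.73 and -0.46, and -0.48 and -0.65 in the same order. For deviations from the group means Aldh1a1 had -0.54 in WT and -0.247 in Akita mice. Acss1 had -0.83 and -0.34 (Spearman -0.75 and -0.35, adjusted permutation p = 4.5e-05 and 0.17), with -0.55 and 0.11, -0.84 and -0.55, and -0.71 and -0.40. Acss2 had -0.56 and -0.43 (Spearman -0.57 and -0.45, adjusted permutation p = 0.0135 and 0.0817), with -0.35 and 0.04, -0.56 and -0.58, and -0.55 and -0.39. Aldh1b1 had -0.16 in WT and -0.26 in Akita mice (adjusted permutation p = 0.491 and 0.292), with -0.27 and -0.16 within the ethanol arm and -0.49 and -0.28 within the water arm, and Adh7 had a positive value of 0.37 and 0.27 (adjusted permutation p = 0.136 and 0.281). Any further part of the receptor share in the vehicle differences was not tested, and the arm and the vehicle cannot be told apart in this design.

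**Figure D3:**
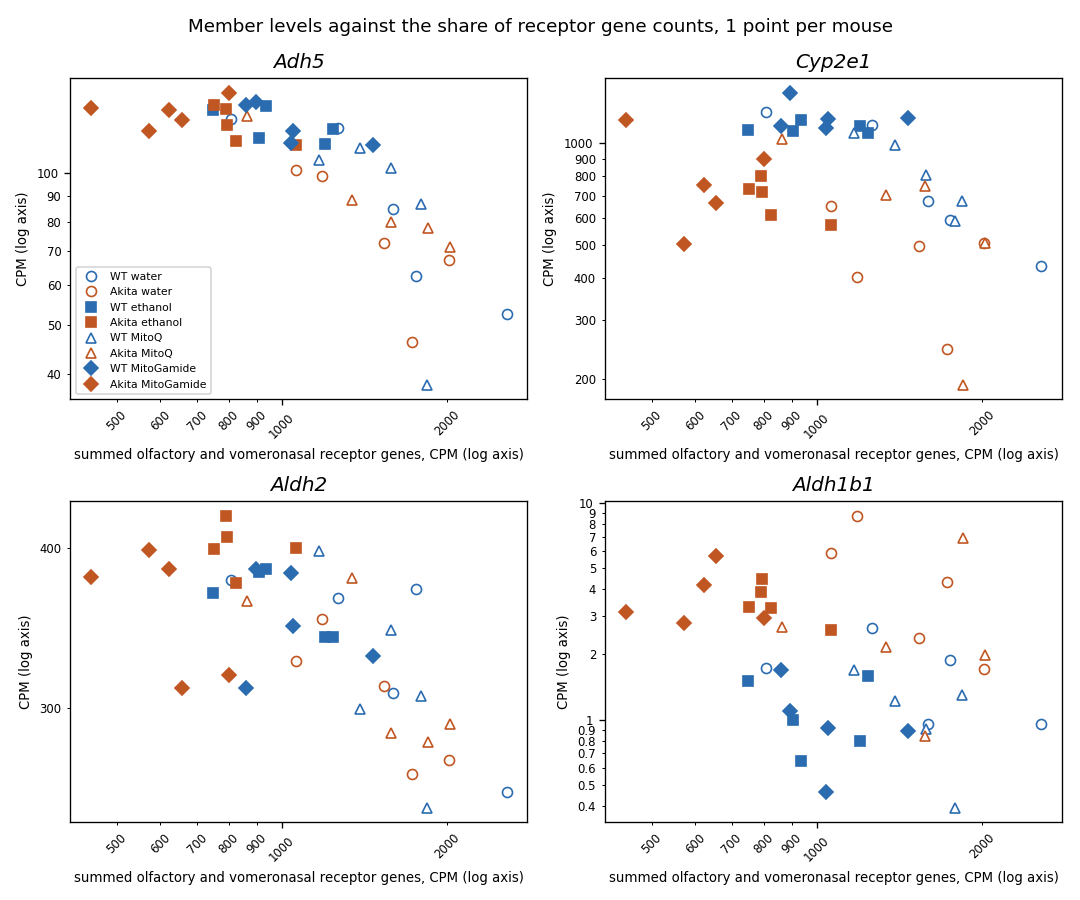
CPM of Adh5, Cyp2e1, Aldh2 and Aldh1b1 against the summed CPM of olfactory and vomeronasal receptor genes (both axes log), 1 point per mouse, with blue for WT, orange for Akita, open symbols for the water arm and filled symbols for the ethanol arm. The libraries farthest to the right, above 1468 CPM of receptor genes, are all of the water arm, and Aldh1b1 runs from 0.391 to 2.65 CPM in WT and from 0.843 to 8.73 CPM in Akita mice.

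Diabetes was compared in 4 treatments that share no libraries with each other. The water and ethanol groups are the same libraries as in the vehicle comparison. In the fit over all 40 mice with the treatment as a term, 7 of the 9 members differed between Akita and WT mice, 3 higher and 4 lower, beside 22.8% of 17769 genes (11% higher and 11.8% lower). The members were chosen with earlier results of these data known, so that this comparison with all genes is only a description. At the step from ethanol to acetaldehyde, Adh1, Adh7 and Cyp2e1 fell 2.20-fold, 2.42-fold and 1.54-fold, and Adh5 did not pass the test. At the step from acetaldehyde to acetate, Aldh1a1 rose 4.17-fold and Aldh1b1 rose 3.04-fold, whereas Aldh2 had a log2 fold change of 0.01 with a 95% interval from -0.11 to 0.13. Of the acetyl-CoA synthetases, mitochondrial Acss1 rose 1.35-fold and cytosolic Acss2 fell 1.29-fold. In bulk cortex, fewer cells of a type and less RNA per cell cannot be told apart for any of these genes.

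Aldh1a1, the cytosolic dehydrogenase best known for making retinoic acid, was at 6.15, 7.32, 5.48, 4.45 and 13.9 CPM in WT mice on ethanol. Akita mice on ethanol had 27.0, 27.9, 29.5, 39.2 and 26.6 CPM. All Akita values were above all WT values, and the log2 fold change was 2.02 (SE 0.24, edgeR adjusted p = 0.00013). On water the WT mice had 12.6, 4.58, 2.20, 3.18 and 8.68 CPM and the Akita mice 16.4, 9.47, 10.8, 41.7 and 19.7 CPM. These groups overlapped only through WT replicate 1 and 2 Akita mice, and the log2 fold change of 1.65 (SE 0.52) was not called over all genes (adjusted p = 0.304, unadjusted p = 0.00761 by edgeR). With MitoGamide the ranges were 5.44 to 9.67 CPM in WT and 27.4 to 70.1 CPM in Akita mice (log2 fold change 2.57, SE 0.28, edgeR adjusted p = 0.000271). With MitoQ they were 4.19 to 6.73 and 10.3 to 31.4 CPM (log2 fold change 2.01, SE 0.27, edgeR adjusted p = 0.00582). In all, 17 of the 20 Akita libraries lay above every WT library of any treatment. Its close copy Aldh1a7 rose by 1.78 on the log2 scale over all 40 mice (SE 0.19).

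Aldh1b1, the mitochondrial enzyme of low abundance here, was at 0.641, 1.5, 1.00, 0.792 and 1.60 CPM in WT and at 3.91, 3.30, 4.45, 2.60 and 3.26 CPM in Akita mice on ethanol. These groups were apart, with a log2 fold change of 1.65 (SE 0.24, edgeR adjusted p = 0.000564). On water the values were 2.65, 1.88, 0.951, 0.954 and 1.72 CPM in WT and 5.89, 4.34, 1.72, 8.73 and 2.38 CPM in Akita mice, and they overlapped. The log2 fold change there was 1.51 (SE 0.46, adjusted p = 0.275). The difference was 1.86 (SE 0.30, edgeR adjusted p = 0.00299) with MitoGamide and 1.42 (SE 0.51, adjusted p = 0.351) with MitoQ. With MitoQ the Akita libraries ran from 0.843 to 6.90 CPM, and overlapped the WT range of 0.391 to 1.70 CPM.

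Adh1 in Akita mice on ethanol lay entirely below the WT values listed above, at 144 to 169 against 270 to 412 CPM, and fell by 1.09 on the log2 scale (SE 0.11, edgeR adjusted p = 5.22e-05). On water the groups were also apart, at 64.1 to 146 against 156 to 514 CPM. That difference of -1.47 (SE 0.35) was not called over all genes (edgeR adjusted p = 0.129), and it was -1.14 without the WT library with high albumin. With MitoGamide the ranges were 154 to 229 CPM in Akita and 289 to 438 CPM in WT mice (log2 fold change -0.89, SE 0.14, edgeR adjusted p = 0.00268). With MitoQ they were 63.0 to 195 and 114 to 442 CPM (log2 fold change -1.06, SE 0.35, adjusted p = 0.287), and WT replicate 3, the library of high mitochondrial share, was the lowest WT value. Of the 20 WT libraries, 16 lay above every Akita library.

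Cyp2e1 fell by 0.68 on the log2 scale in Akita mice on ethanol (SE 0.09, edgeR adjusted p = 0.000356), from a WT range of 1075 to 1171 CPM to 571 to 799 CPM with no overlap, and with all 40 libraries in one fit the adjusted p was 0.191. The differences on water, -0.83 (SE 0.33), with MitoGamide, -0.56 (SE 0.19), and with MitoQ, -0.37 (SE 0.35), did not pass the edgeR test. Their edgeR adjusted p was 0.538, 0.07 and 0.893, respectively. Akita mice on MitoGamide spread from 504 to 1173 CPM and those on MitoQ from 193 to 1028 CPM. Adh7 had its WT values between 1.68 and 7.74 CPM and its Akita values between 0.559 and 5.62 CPM over the 4 treatments. It fell with diabetes on ethanol (-1.24, SE 0.37, adjusted p = 0.0381) and with MitoGamide (-1.41, SE 0.32, adjusted p = 0.0143), and the groups overlapped on ethanol. The call on ethanol was lost without any one of 6 of the 10 libraries (Akita replicates 1 to 4, WT replicates 1 and 4; adjusted p up to 0.0959) and with all 40 libraries in one fit (0.0898), and with the receptor covariate the adjusted p was 0.133 on ethanol and 0.432 with MitoGamide.

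Acss2, which makes acetyl-CoA from acetate for lipid synthesis and histone acetylation, was at 222, 200, 198, 203 and 166 CPM in WT and at 175, 153, 172, 147 and 168 CPM in Akita mice on ethanol. The groups overlapped through the lowest WT value, and the log2 fold change was -0.26 (SE 0.08, adjusted p = 0.0419). With MitoGamide it was -0.40 (SE 0.12, adjusted p = 0.0421) and the groups were apart, at 110 to 171 against 178 to 224 CPM. Both calls sat close to the threshold. On ethanol the call was lost without any one of 8 libraries (Akita replicates 2 to 5, WT replicates 1 to 4; adjusted p up to 0.105), without a filter (0.059), with the replicate block (0.0591) and with all 40 libraries in one fit (0.313). With MitoGamide it was lost without any one of 7 (Akita replicates 1 and 2, each WT replicate; adjusted p up to 0.106), without a filter (0.0696) and with the receptor covariate (0.213). The values of Acss2 on water, -0.43 (SE 0.18), and with MitoQ, -0.33 (SE 0.17), did not pass the test. Acss1 had differences of 0.57 (SE 0.38) on water, 0.36 (SE 0.16) on ethanol, 0.32 (SE 0.19) with MitoGamide and 0.51 (SE 0.24) with MitoQ. Each missed the threshold in edgeR, whereas the fit over 40 mice called Acss1 (0.43, SE 0.14, edgeR adjusted p = 0.0196). Akita libraries ranged from 122 to 383 CPM of Acss1 and WT libraries from 82.0 to 245 CPM.

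Adh5 was not called between the genotypes by edgeR in any treatment or over 40 mice. Its WT libraries ran from 38.1 to 138 CPM and its Akita libraries from 46.3 to 144 CPM. The log2 fold change over 40 mice was -0.03, with a 95% interval from -0.25 to 0.18, and on ethanol the interval was from -0.14 to 0.18. Aldh2 ran from 251 to 398 CPM in WT and from 267 to 423 CPM in Akita mice. On ethanol the 2 genotypes did not overlap for Aldh2 once scaled within that comparison, although they did by a small margin when scaled over 40 libraries, and the log2 fold change of 0.16 (SE 0.06) had an edgeR adjusted p of 0.103 and a DESeq2 adjusted p of 0.0376.

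**Figure D4:**
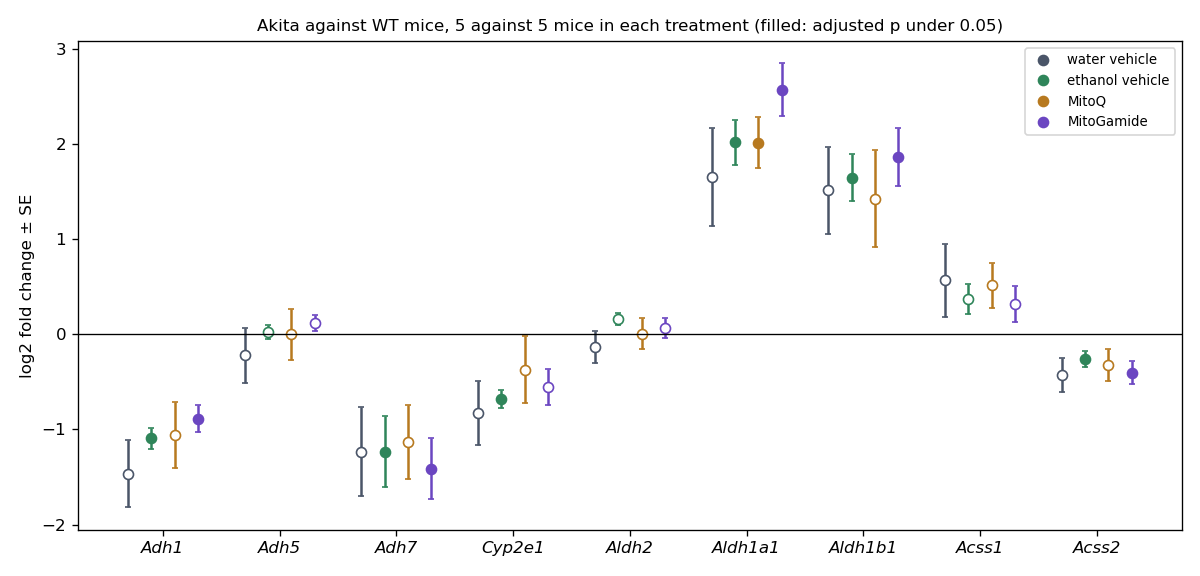
Log2 fold change (± SE) of Akita against WT mice for each gene in the 4 treatments, from edgeR fits of 5 against 5 mice, with filled points where the adjusted p was under 0.05. Aldh1a1 lies between 1.65 and 2.57 and Aldh1b1 between 1.42 and 1.86, Adh1 between -1.47 and -0.89, and Adh5 and Aldh2 between -0.22 and 0.16.

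Counted by treatment, 6 members were called on ethanol, 2 higher and 4 lower (16.4% of 17747 genes called, 8.18% higher and 8.22% lower), 5 with MitoGamide, 2 higher and 3 lower (14.3% of 16674, 7.71% higher and 6.6% lower), 1 with MitoQ (0.557% of 18143) and 0 on water (0.552% of 18304, with 6 members and 7.56% of genes at an unadjusted edgeR p under 0.05, and 1 member called by DESeq2). Groups did not overlap for 5 members on ethanol (12.7% of all genes), 5 with MitoGamide (12.8%), 1 on water (2.51%) and 1 with MitoQ (2.85%). The difference of the diabetes effect among the 4 treatments was called for 0 members and 0 genes by edgeR (0.0%), the lowest unadjusted p of a member was 0.432, and DESeq2 called 13 genes and 0 members, so that the unequal numbers of calls do not show unequal effects. With the receptor share as a covariate 0 members were called in the MitoGamide comparison, where the WT libraries (859 to 1468 CPM) and the Akita libraries (449 to 801 CPM) did not overlap in that share. Over all genes 91 were called there with the covariate. On water the same covariate gave 2 called members, Adh1 and Aldh1a1, beside 382 of all genes called. In the fit over 40 mice 6 of the 7 calls held with it, and Acss1 had an edgeR adjusted p of 0.094. Of all genes 5404 were called in that fit with the covariate and 4045 without it.

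No member was called for either compound. MitoGamide against the ethanol vehicle gave log2 fold changes from -0.13 to 0.26 in WT mice and from -0.19 to 0.46 in Akita mice, and 0 members were called beside 0.0% and 1.26% of genes (10.6% and 20.9% at an unadjusted edgeR p under 0.05). MitoQ against water gave -0.59 to 0.34 in WT and -0.69 to 0.47 in Akita mice, again with 0 members and 0.0% of genes called (3.22% and 1.96% at an unadjusted p under 0.05). DESeq2 called 0 members in each of these 4 comparisons. The groups overlapped for all 9 members in each of them, whereas they did not for 2.27% and 7.55% of genes with MitoGamide in WT and Akita mice and for 0.928% and 0.314% with MitoQ.

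Other genes of the pathway were taken from lists of related functions, and their calls over 40 mice stand beside 22.8% of all genes called in that fit (11% higher and 11.8% lower). Of 7 further alcohol-oxidising genes 2 were tested over 40 mice, where Adhfe1, a hydroxyacid-oxoacid transhydrogenase, fell by 0.36 (SE 0.08). Of 15 other aldehyde dehydrogenases tested, 2 rose and 4 fell with diabetes, with Aldh1a7 at 1.78 and Aldh3b1 at 0.54 in the higher and Aldh3a2, a fatty aldehyde dehydrogenase, at -0.58 and Aldh8a1, an enzyme of tryptophan breakdown, at -0.45 in the lower direction. Of 9 enzymes around acetate and acetyl-CoA, 2 rose and 3 fell, among them Acacb at 0.47 and Acaca at -0.41, the mitochondrial and cytosolic acetyl-CoA carboxylases, and Acat1, of ketone body use, at -0.59. Of 11 NADH shuttle enzymes 4 rose and 0 fell, with values of 0.35 for both Slc25a12 and Gpd1, 0.33 for Got1 and 0.19 for Got2. Of 8 tested genes of formaldehyde, S-nitrosoglutathione and carbonyl handling beside Adh5, 1 was called, the carbonyl reductase Cbr1, which rose by 1.49 (SE 0.17).

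Of 13 other cytochromes P450 of families 2 and 4 and their partners, 3 rose and 7 fell with diabetes over 40 mice. The fatty acid hydroxylases Cyp4a14 and Cyp4a10 had higher log2 levels by 3.49 and 1.56, and Cyp4b1 and Cyp2a4 fell by 1.57 and 1.68. Among 9 retinoid genes tested, Stra6, the retinol transporter, rose by 1.26 and Rdh16 by 0.50, and Rdh10, which makes retinaldehyde, fell by 0.79. Of 9 regulators, Ppara and Nfe2l2 rose by 0.30 and 0.17 and Srebf1, a regulator of lipid synthesis genes that include Acss2, fell by 0.52. All 8 male-biased kidney genes fell, with a median of -1.59 beside -0.02 over all genes. This list and the others were chosen with earlier results of these data known, so that the comparison with all genes is only a description. Between the ethanol and water vehicles 0 genes of these lists passed the edgeR test in WT mice. In Akita mice on ethanol against water 1 aldehyde dehydrogenase rose and 1 fell, Aldh1a7 at 1.09 (edgeR adjusted p = 0.0306) and Aldh1l2 at -0.61 (edgeR adjusted p = 0.0479). Of the 13 cytochromes P450 and partners 5 rose, led by Cyp2a5 at 1.19 (edgeR adjusted p = 0.0296), beside 12.7% of all genes called (3.66% higher and 9.07% lower). Adhfe1 at 0.60, Acly at 0.62, Insig1 at 1.09, Ppara at 0.72 and Odc1 at 1.12 were also called higher on ethanol in Akita mice. These calls depended on the fit, since over all genes 0 were called with the replicate block and 1 with the receptor covariate. Over both genotypes 8 of 15 aldehyde dehydrogenases, 8 of 11 NADH shuttle enzymes and 8 of 13 cytochromes P450 and partners rose with ethanol. Adhfe1 (0.59, SE 0.14) and catalase (Cat, 0.42, SE 0.12) also rose, and 0 genes of those lists fell. Beside these, 21.5% of all genes were called higher, and 2 genes in all with the receptor covariate.

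Over 40 mice 3 of 6 markers of the straight part of the proximal tubule and 4 of 10 general proximal tubule markers fell with diabetes, as did 2 of 5 thick ascending limb and 3 of 5 tested leukocyte markers, beside 22.8% of all genes called (11% higher and 11.8% lower). In the same fit 3 of 5 podocyte, 3 of 5 collecting duct principal cell and 2 of 4 distal convoluted tubule markers rose. Of 5 endothelial markers 2 rose and 1 fell. Marker sums were compared between the genotypes on ethanol and on water only, in 5 against 5 mice. None passed the exact permutation test after adjustment. Groups fully apart give the smallest possible p of 0.00794, which was 0.0551 after adjustment, so that no sum could pass. The adjusted test therefore cannot decide whether a cell type shifted. The summed level of 6 markers of the straight part of the proximal tubule had a mean of 1534 CPM (Akita) against 2665 CPM (WT) on ethanol and of 1238 against 2654 CPM on water, each with an exact permutation p of 0.00794 (adjusted p = 0.0551 over 104 tests). On ethanol these sums ran from 1351 to 1664 and from 2016 to 3656 CPM, with 0 of the 6 markers at 0. Adh1 and Cyp2e1 are known to be proximal tubule genes in mice, and the part of this shift in their lower levels was not tested. The 10 general proximal tubule markers had a mean sum of 14840 (Akita) against 18190 (WT) on ethanol (exact permutation p = 0.0159, adjusted p = 0.0919) and of 12350 against 14120 CPM on water (exact permutation p = 0.31). The sums of other cell types also had low unadjusted p without passing after adjustment. On water the 5 thick ascending limb markers had means of 2014 (Akita) and 2980 CPM (WT), and the 7 leukocyte markers 99.1 and 148 CPM, each with an exact permutation p of 0.00794 (adjusted p = 0.0551), and none of these markers was at 0. On ethanol the means were 2324 and 2680 CPM (exact permutation p = 0.0952) and 130 and 168 CPM (exact permutation p = 0.0714).

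Kap, the kidney androgen-regulated protein of the proximal tubule, was at 122 to 6279 CPM in Akita and 3347 to 11231 CPM in WT mice, and the levels of several members were correlated with it in each genotype. Over the 20 Akita libraries the correlation of log2 levels with Kap was 0.78 for Cyp2e1 (Spearman 0.74, permutation p = 0.00021 and 0.00035, adjusted 0.000756 over the 18 relations with Kap). It was 0.59 without the 2 libraries farthest from the median, 0.49 within the ethanol arm and 0.88 within the water arm. For Adh1 it was 0.73 (Spearman 0.63, permutation p = 0.00088 and 0.0035, adjusted 0.00226), with 0.52, 0.59 and 0.83 in the same order. Aldh1b1 ran the other way, at -0.69 (Spearman -0.61, permutation p = 0.00083 and 0.00478, adjusted 0.00226), with -0.53, -0.61 and -0.79. Acss1 had -0.55 (Spearman -0.50, permutation p = 0.00972 and 0.025, adjusted 0.0159), with -0.42, -0.76 and -0.57. Adh7 had 0.63 (Spearman 0.49, permutation p = 0.00229 and 0.028, adjusted 0.00458), with 0.48, 0.47 and 0.80, and Aldh1a1 had -0.29 (adjusted permutation p = 0.248), with -0.19, -0.62 and -0.54. Over the 20 WT libraries the correlation was 0.92 for Adh5 (Spearman 0.68, adjusted permutation p = 9e-05), 0.84 for Acss2 (Spearman 0.68, adjusted 9e-05), 0.83 for Cyp2e1 (Spearman 0.78, adjusted 3e-04) and 0.81 for Adh1 (Spearman 0.48, adjusted 0.000405). Without the 2 farthest libraries these were 0.80, 0.71, 0.80 and 0.59. Within the WT water arm they were 0.95, 0.94, 0.76 and 0.91, and within the WT ethanol arm -0.06, 0.67, 0.26 and -0.14, so that for Adh5, Cyp2e1 and Adh1 they rested mainly on the water arm. In Akita mice Adh5 had 0.28 (adjusted permutation p = 0.256) and Acss2 0.56 (adjusted permutation p = 0.016). In WT mice Aldh1b1 had -0.13 (adjusted permutation p = 0.611) and Acss1 0.60 (adjusted permutation p = 0.0104), the latter falling to 0.17 without the 2 farthest libraries. WT Aldh2 had 0.71 (Spearman 0.53, adjusted permutation p = 0.00241), falling to 0.32 without them, so that both rest on those libraries. WT Aldh1a1 had 0.51 (Spearman 0.34, adjusted permutation p = 0.0294), with 0.33, -0.80 and 0.68, so that its sign differed between the arms. WT Adh7 had -0.11 and Akita Aldh2 0.35 (adjusted permutation p = 0.633 and 0.171). Levels in these relations share the library scaling, the permutation p also takes in differences between the treatments, and no cause was tested.

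**Figure D5:**
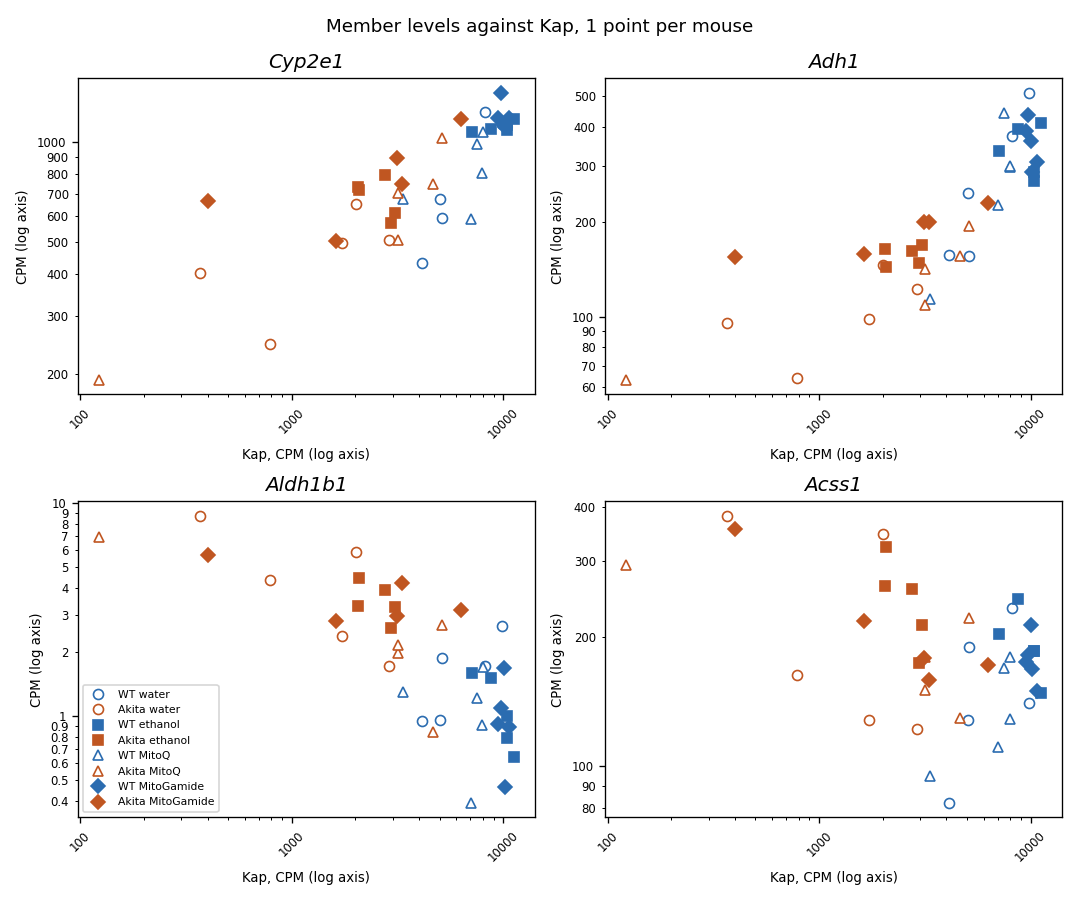
CPM of Cyp2e1, Adh1, Aldh1b1 and Acss1 against CPM of Kap (both axes log), 1 point per mouse, with blue for WT, orange for Akita, open symbols for the water arm and filled symbols for the ethanol arm. The 3 Akita libraries with Kap between 122 and 401 CPM had Aldh1b1 at 5.71 to 8.73 CPM and Acss1 at 294 to 383 CPM.

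The genes most like each member over the 40 libraries were found by Pearson correlation of log2 CPM, as a description over libraries that share the scaling, genotype and arm. Adh1 ran closest to Odc1 (0.97, and 0.93 for deviations from the group means), then Fhl1 and Amacr. Cyp2e1 ran closest to Ugt2b38 (0.94), then Cd36 and Acsm2, and Adh7 to 0610031O16Rik (0.89), with which it shares sequence. Aldh1a1 ran closest to Aldh1a7 (0.93), then Ephx1 (0.92) and Gsta2 (0.91), and Aldh1b1 to Ephx1 (0.89), Acsf2 (0.88) and Spp1 (0.86). Acss1 ran closest to Acaa2 (0.92), then Retsat and Spp2, and Acss2 to Ivd (0.91), then Amacr and Entpd4b. Adh5 ran closest to Ciao2a (0.97), then Atp6v1b2 and Tmem70, and Aldh2 to Cda (0.88), then Ndufs7 and Abcb6.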

How the data were processed

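Per the labels and the study's methods, RNA of renal cortex was depleted of ribosomal RNA, made into directional libraries and quantified per transcript with kallisto 0.46.1 on GRCm38 (R 4.0.2 in the submitters' processing notes). The authors deposited estimated counts summed per gene, as whole numbers, for 40 libraries. Whether counting used the strand is not given in the sources used here. Separate animals were the replicates. Totals of 9106654 to 24321424 set the precision. The tested genes averaged 10 counts or more in the libraries compared, and the test was that of edgeR 4.0.16 (TMM, quasi-likelihood, Benjamini-Hochberg adjustment over all genes tested). DESeq2 1.42.0 and other scalings, filters and library sets were alternatives. Summed lists were compared by two-sided exact permutation, and relations with 100000 permutations. Checked on simulated counts, folds of 1.5 and 2 were recovered for 47% and 80% of changed genes for Akita against WT on ethanol (17552 and 17512 genes), and for 0% and 62% for ethanol against water in Akita mice (17703 and 17671 genes). In each of these simulations 200 genes were changed and every gene was drawn independently. The shares recovered therefore need not hold for comparisons where many genes shift together. The 9 members were all named. List genes named were taken from those called, at most the 4 of lowest adjusted p a list and comparison, and not all of these were named. The 3 genes most correlated with each member over 40 libraries were also named. Members and lists were chosen with earlier results of these data known.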

Additional observations from a re-analysis of the deposited data

Results flagged for a closer look

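A single mouse stood apart from the other 4 of its group in 5 of 72 gene and group combinations (gap over range above Dixon's critical value of 0.71), where chance gives about 1 in 20 groups, or 3.6 here. Adh7 was at 7.74 CPM in WT on MitoGamide replicate 4, and Cyp2e1 was at 1409 CPM in WT on MitoGamide replicate 3, each the highest of its group. Aldh1a1 was highest at 6.73 CPM in WT on MitoQ replicate 4 and at 39.2 CPM in Akita on ethanol replicate 4. Acss2 was lowest at 114 CPM in WT on MitoQ replicate 3, the library with 49.2% mitochondrial counts.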

How the results depend on the processing

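In the fit over 40 mice Aldh1a1, Aldh1b1, Adh1, Adh7, Cyp2e1 and Acss2 were called under every alternative that tested them, and the 7 calls held without any single library. With at least 10 counts in every library Aldh1b1 and Adh7 were not tested, so that 5 members were called. The vehicle calls of Adh5, Cyp2e1 and Aldh2 over both genotypes held without any single library and were lost under both alternatives on receptor genes. Those of Adh5 and Aldh2 in Akita mice were also lost without most single libraries and under the replicate block. The cause was not tested. Low counts limit Adh7 and Aldh1b1.

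DESeq2 called 4 members for ethanol in Akita mice and, for diabetes, 1 on water, 7 on ethanol and 6 with MitoGamide. For diabetes on ethanol and with MitoGamide it called 3116 and 3082 of all genes. Over all genes it called 724 and 4264 for ethanol in WT and Akita mice, 354 and 415 for diabetes on water and MitoQ, 2 for the ethanol interaction, 13 for the difference among treatments, 73 and 1022 for MitoGamide in WT and Akita mice and 2 for MitoQ in WT mice. With all 40 libraries in one fit 3, 3 and 2 members were called for diabetes on water, ethanol and MitoQ, and without a filter 1 member for ethanol in Akita mice. Calls over all genes were not counted in these fits, so that no background stands beside these members.

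With the receptor share as a covariate, 0 members and 1 gene were called for ethanol in Akita mice, 0 and 2 over both genotypes, 2 and 382 for diabetes on water, 0 and 91 with MitoGamide, 253 genes with MitoQ and 1 for the difference among treatments. Signs turned for ethanol in WT mice in Acss2 (-0.0633), Aldh2 (-0.0486), Aldh1a1 (-0.0612), Adh7 (0.0698) and Adh1 (-0.20), in Akita mice in Acss1 (-1.20), Aldh1a1 (-0.0405) and Adh7 (0.92), and over both in Acss1 (-0.37), Acss2 (-0.0054), Aldh1a1 (-0.0261), Adh7 (0.25) and Adh1 (-0.0505). They also turned for diabetes in Adh5 on ethanol (-0.0561) and Aldh2 over 40 mice (-0.067).

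Without libraries over 1500 CPM of receptor genes (chosen after seeing the data), 0 members and 6 genes were called for ethanol in Akita mice, 0 and 27 over both genotypes, 1 and 313 for diabetes on water, 182 genes with MitoQ, 1 for the difference among treatments, and 6 and 17 for MitoQ in WT and Akita mice. Signs turned for ethanol in WT mice in Cyp2e1 (-0.0836), Acss2 (-0.15), Adh5 (-0.0024), Aldh2 (-0.0235), Aldh1a1 (-0.49), Adh7 (0.0097) and Adh1 (-0.38), in Akita mice in Acss1 (-0.55) and Adh7 (0.66), and over both in Acss1 (-0.26), Aldh1a1 (-0.19), Adh7 (0.28) and Adh1 (-0.0126). Adh5 turned for diabetes over 40 mice (0.0030).

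Same-numbered mice were not treated as pairs in the main fits, since in no comparison did all 5 such pairs correlate above 0.1. Some pairs did, with 3 of 5 above 0.1 and a highest correlation of 0.655 for MitoQ against water in Akita mice. Whether replicate numbers mark a shared batch was not tested. With the replicate block 0 members and 0 genes were called for ethanol in Akita mice, 2 genes in WT mice, and 5 members and 8048 genes over both genotypes. The block gave 32 and 48 genes for diabetes on water and MitoQ, 0 for MitoGamide in Akita mice and 1 for MitoQ in WT mice.

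Leaving out 1 library gave 0 to 5 members and 1 to 6496 genes for ethanol in Akita mice, and 0 to 5216 genes in WT mice (5216 without WT on water replicate 5). Over both genotypes it gave 3 to 5 members and 5944 to 10039 genes, and for the interaction 0 to 1 genes. For diabetes it gave 32 to 94 genes on water, 1248 to 2822 with MitoGamide, 35 to 270 genes and 1 to 2 members with MitoQ, and 0 to 1 for the difference among treatments. For MitoGamide it gave 0 to 4 genes in WT and 0 to 802 in Akita mice. Log2 fold changes that turned sign ranged from -0.10 to 0.68 for Aldh1a1 with ethanol in WT mice, and in Akita mice from -0.0338 to 0.39 for Acss1 and from -0.54 to 0.043 for Adh7. For diabetes they ranged from -0.0125 to 0.0568 for Adh5 on ethanol, and over 40 mice from -0.057 to 0.0275 for Adh5 and from -0.0049 to 0.0526 for Aldh2. For diabetes with MitoQ they ranged from -0.193 to 0.0866 for Adh5 and from -0.0782 to 0.103 for Aldh2.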
